A study of Ovis aries with 20 samples.

Results

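The 10 genes described here encode transcription factors grouped under the heading of gonadal cell identity: FOXL2, NR5A2, NR5A1, GATA4, GATA6, NR2F1, NR2F2, LHX9, TCF23 and WT1. They were chosen with earlier results of these data known. The rule takes them by name, as the rows of the deposited table that carry these symbols, and 10 of 10 were found among its 28524 genes.

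Ovaries came from adult sheep whose mothers had been given testosterone propionate (prenatal T) or vehicle (control) during pregnancy, and RNA of granulosa and theca cells was sequenced. From gestation day 30 to 90 the mothers were injected with 100 mg (1.2 mg/kg) into the muscle 2 times a week. The daughters received 2 doses of prostaglandin F2α (10 mg each, 11 days between them), and their ovaries were removed 18 h after the second, at an age of 21 months. Each layer was cut by laser from cryosections (14 µm) of several antral follicles and pooled per animal, so several follicles share a library, and total RNA depleted of ribosomal RNA was made into stranded libraries. The labels name no breed, allele or transgene. Granulosa libraries came from 5 prenatal T sheep (209, 210, 230, 276 and 315) and 4 control sheep (224, 244, 246 and 268). Theca libraries came from the same 5 prenatal T sheep and from 5 control sheep (139 and these 4). Values of single animals are listed in the order of these numbers. The granulosa sample of sheep 139 is listed but has no values in the deposited table, so sheep 139 was left out of every comparison made within animals.

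FOXL2, a forkhead factor, keeps mouse granulosa cells from taking on features of testicular Sertoli cells, and the orphan nuclear receptors NR5A1 (steroidogenic factor) and NR5A2 (liver receptor homolog) bind the same kind of site on genes of steroid synthesis. GATA4 and GATA6 are zinc finger proteins that act together with NR5A1 on such genes in both somatic layers of the follicle. The COUP factors NR2F1 and NR2F2 mark interstitial and stromal lineages of the mouse gonad, LHX9 and WT1 are needed in mouse for the early gonadal ridge to grow, and TCF23 is a basic helix-loop-helix protein known from the decidualizing mouse uterus.

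Libraries held 12.70 to 26.03 M reads. Levels are the authors' normalized counts, in which a gene's reads are divided by a size factor that each library has. They are not corrected for transcript length, so levels are compared between libraries and not between genes. The labelled layers were set beside marker genes that leave out the 10 factors. Of these, 11 of 11 granulosa markers were higher in granulosa cells and 17 of 17 theca markers were lower there. The test was limma with all libraries (Benjamini-Hochberg adjusted over all genes, threshold 0.05), where 28.8% of genes were higher and 27.8% lower. The markers were chosen with earlier results of these data known, so these counts are no independent check of the labels. Both libraries of prenatal T sheep 209 stood apart. AMH and FSHR, which define granulosa cells, were at 0 in both, and INHA, an inhibin subunit, was at 8.05 in the library labelled granulosa, against at least 7238 in the other granulosa libraries. CYP17A1 and INSL3, which define theca cells, were at 0 and 1.27 in the library labelled theca, against at least 585 and 3546 in the other theca libraries. COL1A1, a collagen of the theca markers, was at 3337 in the library labelled granulosa and 127254 in that labelled theca. The other libraries of each layer held at least 7248 and 250557. In the library labelled theca, ACTA2 (56967), PDGFRB (5393) and FBLN1 (33085) lay above all other theca libraries, and PDGFRA, DCN and LUM lay within their range. STAR, COL1A2, COL3A1, TCF21, GLI1, PTCH1, HHIP and OGN lay below it. In the library labelled granulosa, SERPINE2 lay within the range of the other granulosa libraries, and the other granulosa markers lay below it. AMH, FSHR, CYP17A1 and INSL3 thus go against the labels, while part of the theca markers does not. The tissue sampled in sheep 209 is therefore in doubt, and its libraries are called by their labels only. Summed epithelium markers reached 92366 in the library labelled granulosa, against 269 to 4255 in the other granulosa libraries, and 22626 in that labelled theca, against 387 to 1053 in the other theca libraries. Summed immune markers in sheep 209 were 17648 and 19911, against 197 to 2242 in other granulosa and 706 to 2414 in other theca libraries. Not every marker in these sums was high. The epithelium marker MSLN lay within the range of the other libraries of each label. The immune markers CD3E and CD3D did so in the library labelled theca. Because sheep 209 stood apart, each comparison was made both with and without this animal. The part of other cell types in the values of sheep 209 was not tested.

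NR5A2 was high in granulosa cells and low in theca cells. Granulosa cells of prenatal T sheep 210, 230, 276 and 315 held 8761, 6343, 7721 and 8939 normalized counts and those of the 4 control sheep 4563, 8095, 4283 and 10084. Theca cells of the same prenatal T sheep held 1984, 806, 1764 and 1290.2, and those of the 5 control sheep 554, 1042, 1655, 1169.8 and 1038. Every granulosa library of these animals thus lay above every theca library, while sheep 209 held 235 in the library labelled granulosa and 238 in that labelled theca. Within animals, NR5A2 was higher in granulosa than in theca cells by 2.18 ± 0.27 on the log2 scale (log2 of the value plus 1, ± SE, 9 animals), with an adjusted p of 4.32e-05 in limma. Without sheep 209 the difference was 2.45 ± 0.14 (8 animals, adjusted p = 4.79e-08). In these bulk samples, fewer cells of a type and less RNA per cell cannot be told apart.

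FOXL2 differed far less between the layers, although it is widely used as a granulosa marker. Its normalized counts were 5478, 6588, 8151 and 5391 in granulosa cells of the 4 prenatal T sheep other than 209 and 6752, 6165, 3804 and 9577 in those of the control sheep. Theca cells held 4382, 4482, 4669.8 and 3898 in these prenatal T sheep and 3058, 4408, 3699.6, 4295 and 6435 in control sheep, so the layers overlapped. Granulosa exceeded theca in 7 of 8 animals, the exception being control sheep 246, in which FOXL2 stood at 3804 in granulosa and 4295 in theca cells. Without sheep 209, FOXL2 was higher in granulosa cells by 0.49 ± 0.092 on the log2 scale (limma adjusted p = 0.000618). With all libraries the difference was 0.16 ± 0.29 and did not pass (adjusted p = 0.661). Sheep 209 decided this call: its FOXL2 level was 36.8 in the library labelled granulosa and 206 in that labelled theca.

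GATA4, GATA6 and NR5A1 differed little between the layers. GATA4 had the smallest spread of the 10 factors in granulosa cells of prenatal T sheep other than 209 (coefficient of variation 4.40%), with 4761, 5012, 5082 and 4623 normalized counts, against 5850.4, 5276, 3186 and 6230.2 in control granulosa cells. In theca cells GATA4 stood at 4550.5, 3565, 4347 and 4027 in the 4 prenatal T sheep and at 4509, 4471, 4668, 3770.3 and 5652 in control sheep. The 4 groups overlapped, and sheep 209 was at 2.30 in the library labelled granulosa and 2.53 in that labelled theca. GATA6, its paralog, averaged 2557 ± 790.1 in granulosa cells of the prenatal T sheep without 209 (SD, n = 4) and 2402 ± 539 in those of control sheep (n = 4). In theca cells GATA6 averaged 1876 ± 375 without sheep 209 (n = 4) and 1949 ± 188 in control sheep (n = 5). In sheep 209 GATA6 was low in the library labelled granulosa, at 78.2, but reached 1446 in that labelled theca, close to the lowest of the other theca libraries, at 1394. NR5A1 averaged 2026 ± 449.9 and 1877 ± 408 in granulosa cells of these prenatal T and of control sheep (SD, n = 4 each), and 1504 ± 320.2 and 1767 ± 458 in their theca cells (n = 4 and 5). Its levels in sheep 209 were 3.45 in the library labelled granulosa and 1.27 in that labelled theca.

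With sheep 209 left out, GATA6 was higher in granulosa cells in 8 of 8 animals, by 0.35 ± 0.077 on the log2 scale (limma adjusted p = 0.00166), and GATA4 in 7 of 8, by 0.18 ± 0.071 (adjusted p = 0.0431). Both are small differences beside that of NR5A2. NR5A1 was higher in granulosa cells in 6 of 8 animals and did not pass, at 0.22 ± 0.10 (adjusted p = 0.0813). With all libraries none of these 3 passed in limma: GATA6 stood at -0.15 ± 0.43 (adjusted p = 0.785), GATA4 at 0.15 ± 0.073 (0.101) and NR5A1 at 0.30 ± 0.12 (0.0525). The sign for GATA6 with all libraries turned with the tool, at 0.042 in edgeR and 0.027 in DESeq2. Leaving out control sheep 246 alone also brought GATA4 (0.20, limma adjusted p = 0.0277) and NR5A1 (0.40, adjusted p = 0.0067) past the threshold, as did leaving out control sheep 268 for NR5A1 (0.35, adjusted p = 0.0424). In a RefSeq gene table of assembly ARS-UI_Ramb_v3.0, GATA4 and GATA6 each overlap 1 long noncoding RNA gene, and the strand setting of the authors' counting is not given in the sources at hand, so reads of these pairs may be shared.

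NR2F2 and NR2F1 were both lower in granulosa than in theca cells. Granulosa cells of prenatal T sheep 210, 230, 276 and 315 had 1123, 1388, 855 and 1107 normalized counts of NR2F2, and control granulosa cells had 1193, 1468, 1724 and 1427. Theca cells had 7820.4, 8019, 7032 and 10041 in these prenatal T sheep and 9903, 8113, 8241, 6705 and 9652 in control sheep. The layers did not overlap even with sheep 209, which held 1121 in the library labelled granulosa and 3982 in that labelled theca. NR2F2 changed by -2.59 ± 0.13 on the log2 scale, granulosa minus theca, with all libraries (limma adjusted p = 1.18e-07) and by -2.69 ± 0.11 without sheep 209.

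NR2F1 counts in granulosa cells were 59.2, 107, 35.5 and 62.8 in prenatal T sheep other than 209, 70.2 in sheep 209 and 128, 157, 99.01 and 122 in control sheep. In theca cells they were 851, 589, 543 and 767 in the same prenatal T sheep, 701 in sheep 209 and 1086, 765, 859.6, 641 and 855 in control sheep. All 9 granulosa libraries lay below all 10 theca libraries. The difference between layers was -3.06 ± 0.18 with all libraries (limma adjusted p = 2.19e-07) and -3.03 ± 0.18 without sheep 209. In both libraries the NR2F1 level of sheep 209 lay within the range of the other prenatal T sheep.

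LHX9 and TCF23 showed the steepest contrast between layers among the 10 factors. LHX9, a LIM homeodomain factor, was at 3.23, 13.7, 3.44 and 15.4 normalized counts in granulosa cells of prenatal T sheep other than 209 and at 5.56, 52.9, 30.4 and 23.5 in control granulosa cells. Its theca levels were 737, 765, 598 and 1198 in these prenatal T sheep and 1363, 635, 1303, 448 and 374 in control sheep. Without sheep 209 the layers did not overlap, and the granulosa values rest on few reads, from 3 to 48 per library. Sheep 209 had 0 LHX9 reads in both libraries, which allows up to 3 reads, or 3.45 normalized counts in that labelled granulosa and 3.80 in that labelled theca (counting error only). LHX9 differed by -5.04 ± 0.65 log2 between granulosa and theca cells with all libraries (limma adjusted p = 6.43e-05) and by -5.67 ± 0.40 without sheep 209 (adjusted p = 2.05e-07).

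TCF23 held 12.9, 9.80, 9.17 and 16.6 normalized counts in granulosa cells of the 4 prenatal T sheep and 10.0, 39.7, 27.5 and 22.7 in those of control sheep. Theca cells held 808, 828.9, 668 and 1117 in these prenatal T sheep and 1063, 639, 906, 606 and 719 in control sheep. No granulosa library reached the lowest theca library, which was that labelled theca of sheep 209 at 132, and its library labelled granulosa, at 13.8, was like that of the others. The difference was -5.22 ± 0.31 log2 with all libraries (limma adjusted p = 2.3e-07) and -5.48 ± 0.23 without sheep 209.

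WT1, a zinc finger factor, was also lower in granulosa cells but with overlap of the layers. It averaged 326 ± 89.7 in granulosa cells of the prenatal T sheep without 209 and 413 ± 106 in control granulosa cells (SD, n = 4 each), against 728 ± 170.0 (n = 4) and 796 ± 230.5 (n = 5) in their theca cells. Theca exceeded granulosa in 9 of 9 animals. The WT1 difference was -1.26 ± 0.26 log2 with all libraries (limma adjusted p = 0.00147) and -0.99 ± 0.13 without sheep 209, whose WT1 level was 32.2 in the library labelled granulosa and 339 in that labelled theca.

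Across the 10 factors, 6 passed between the layers with all libraries: NR5A2 higher in granulosa cells, and NR2F1, NR2F2, LHX9, TCF23 and WT1 lower. Over all genes 9161 of 16169 tested passed (56.7%), 28.8% higher and 27.8% lower in granulosa cells, so a call between layers was common in this table. Without sheep 209, 9 factors passed, 4 higher (NR5A2, FOXL2, GATA6 and GATA4) and 5 lower, against 62.8% of 15923 genes, 31.9% higher and 30.9% lower. A gap with no overlap between the layers was rarer: 5.52% of genes had one with all libraries, as did 3 of the factors (NR2F1, NR2F2 and TCF23), and 17% had one without sheep 209, as did 5 (these 3, LHX9 and NR5A2). All 10 factors passed the filter on low values in this comparison.

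**Figure D1:**
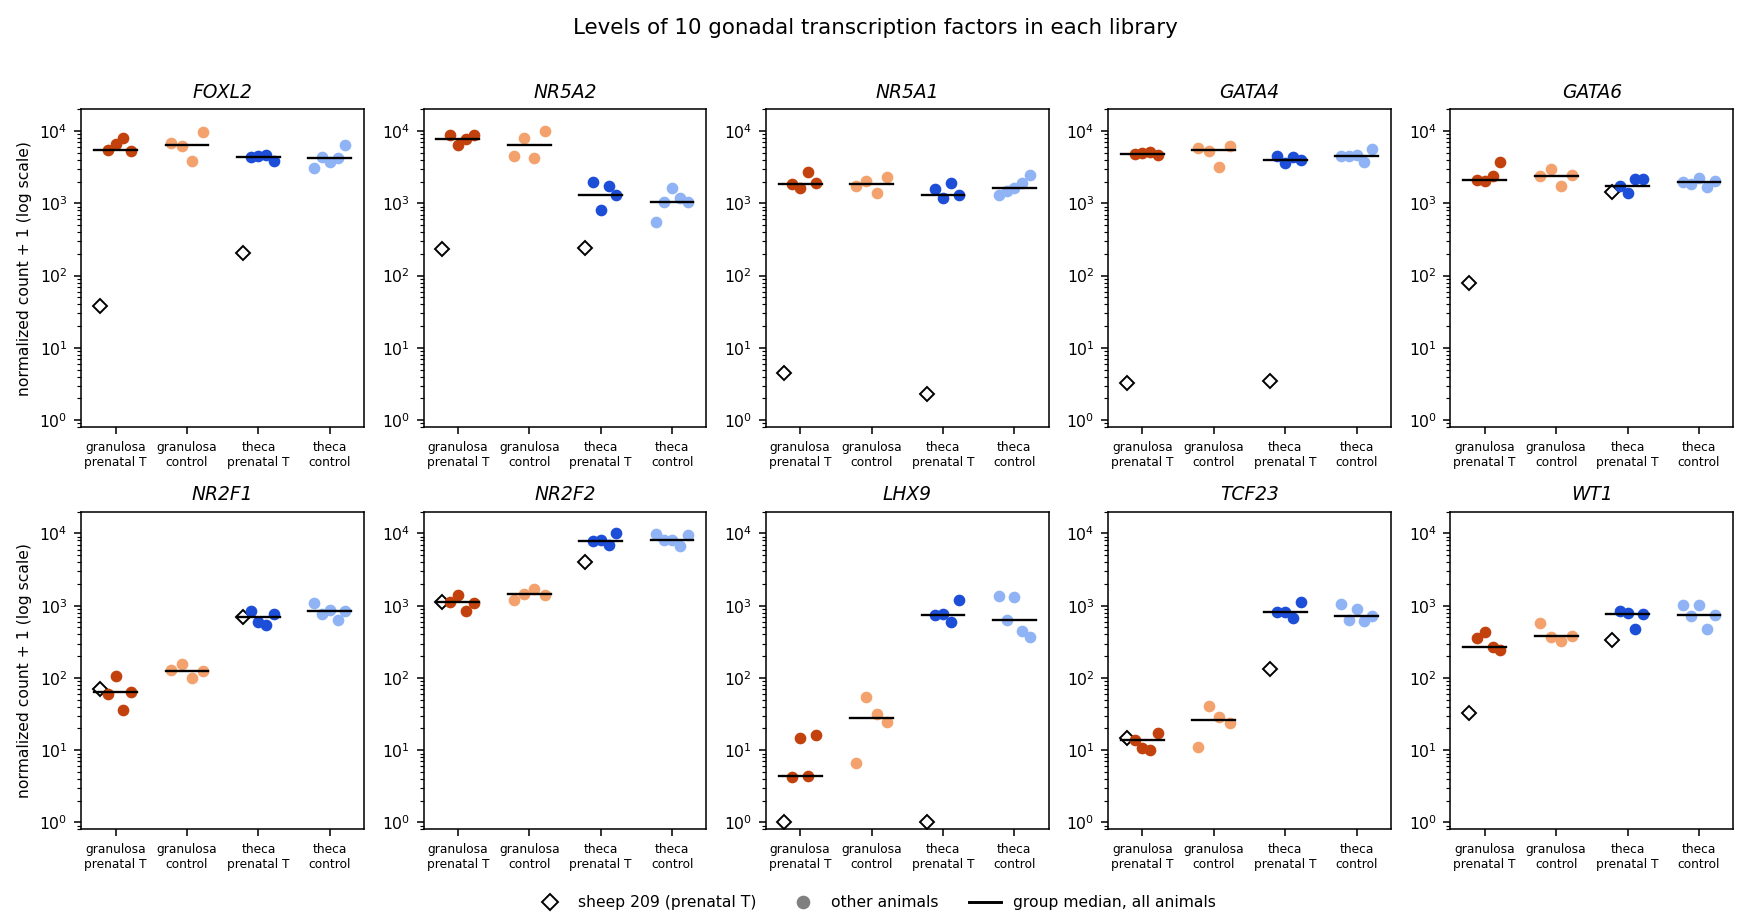
Normalized count plus 1 (log axis) of each factor in every library, with granulosa cells of prenatal T and control sheep left of theca cells of prenatal T and control sheep. Points are animals, open diamonds are sheep 209, and bars are group medians. NR2F1, NR2F2, LHX9 and TCF23 sit high in theca cells, NR5A2 sits high in granulosa cells, and NR5A1 and GATA4 of sheep 209 lie below 10.

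**Figure D2:**
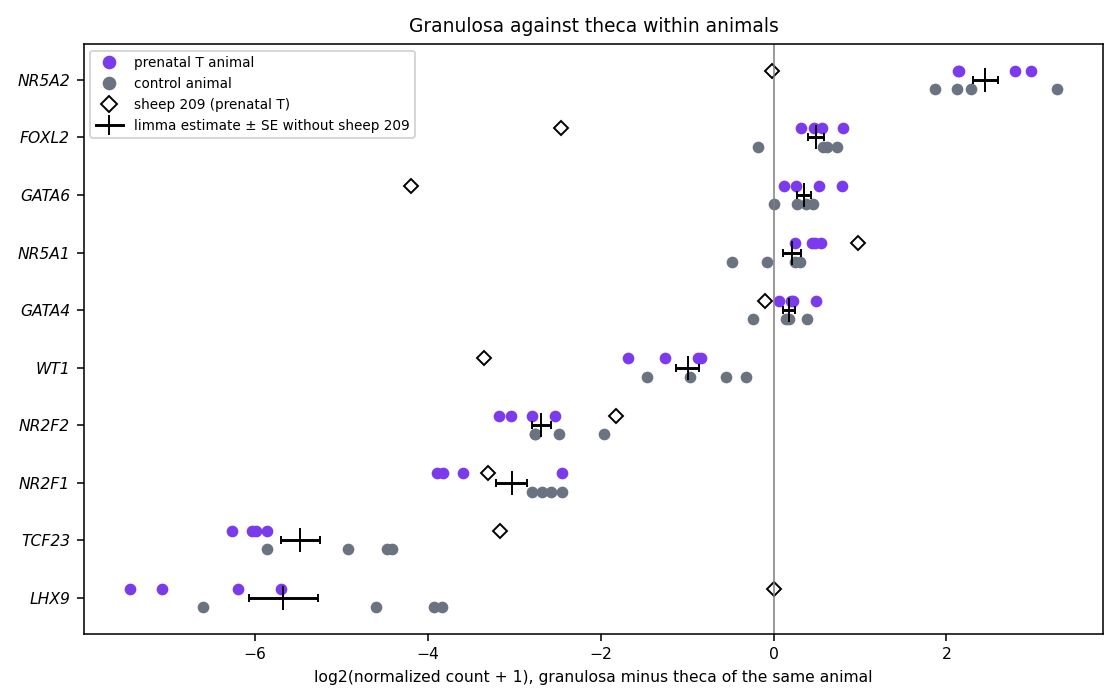
Log2 difference of granulosa minus theca cells within each animal for the 10 factors, with the limma estimate ± SE over the 8 animals other than sheep 209. NR5A2 lies right of 0 and the 5 theca factors lie left of 0 in each of these 8 animals, while FOXL2, GATA6, NR5A1 and GATA4 lie near 0.

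The ratio of the layers within an animal shows how each factor compares with marker genes of the same libraries. These markers were chosen with earlier results of these data known. In the 8 animals other than sheep 209, theca NR5A2 was a median of 21.5% of the granulosa level (range 10.3% to 27.3%), which lies within the range of medians of the 11 granulosa markers, 13.6% to 43.0%. The theca level was a median of 67.6% of the granulosa level for FOXL2 (57.3% to 113%), 79.9% for GATA6 (57.9% to 99.3%), 82.4% for NR5A1 (68.6% to 139%) and 87.8% for GATA4 (71.1% to 118%). These 4 medians lie above that of every one of the 11 granulosa markers. KITLG and GJA1, which encode kit ligand and a connexin, were the markers nearest to them, at up to 43.0%.

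On the theca side, the granulosa level was a median of 1.54% of the theca level for LHX9 (range 0.44% to 6.77%) and 1.58% for TCF23 (1.18% to 4.53%). Both lie below the medians of all 17 theca markers, which ran from 2.80% to 40.0%. NR2F2, at 14.7% (11.0% to 25.7%), and NR2F1, at 14.9% (6.55% to 18.2%), lie in the middle of the theca markers, whose median over genes was 12.3%. WT1, at 53.0% (31.1% to 80.1%), lies above all 17. How far reads carried over from the neighbouring layer make up the lower level of a factor was not tested.

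**Figure D3:**
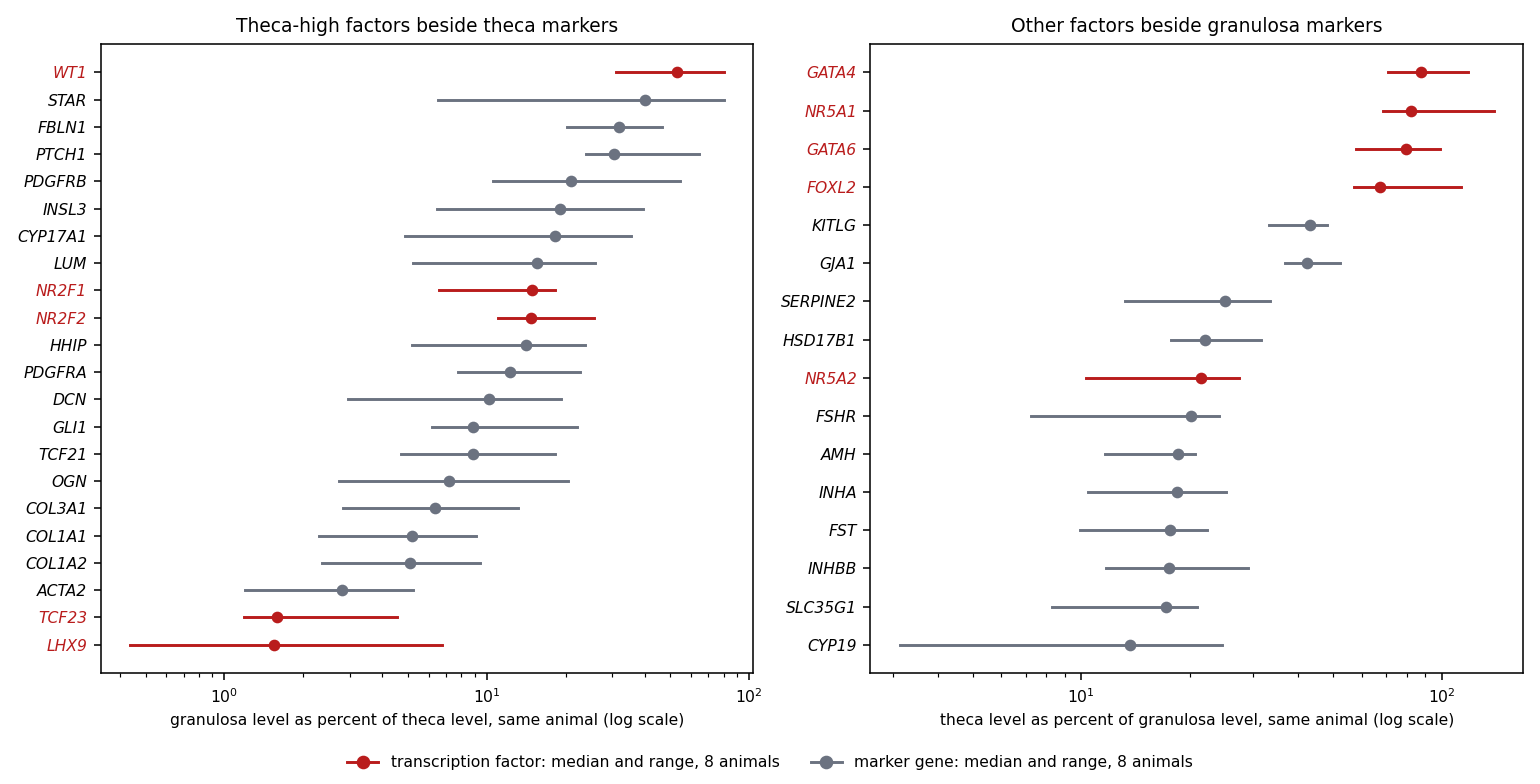
Level in the other layer of the same animal as a percent (log axis), with the median and range over 8 animals without sheep 209. The left panel gives granulosa as a percent of theca for 5 factors (red) and 17 theca markers (grey), with LHX9 and TCF23 lowest and WT1 highest, and the right panel gives theca as a percent of granulosa for 5 factors and 11 granulosa markers, with NR5A2 among the markers and the other 4 factors above them.

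Ratios between 2 factors in the same library hardly depend on the size factor. The log2 ratio of NR5A1 to NR5A2 averaged -1.88 ± 0.33 in granulosa and 0.36 ± 0.51 in theca cells of the 8 animals other than sheep 209 (SD). It was lower in granulosa cells in 8 of 8 animals, with a mean difference of -2.24 and p = 0.00781 in a two-sided exact sign-flip test over animals, the smallest that 8 animals can give, and 0.0156 after Benjamini-Hochberg adjustment over 4 ratios. The FOXL2 to NR2F2 ratio averaged 2.32 ± 0.60 in granulosa and -0.86 ± 0.28 in theca cells of these animals and was higher in granulosa cells in 8 of 8 (difference 3.18, exact p = 0.00781, adjusted p = 0.0156). With all 9 animals both differences still passed, at -1.88 and 2.75 (exact p = 0.00781, adjusted p = 0.0156 each). The ratio of GATA4 to GATA6 was 1.03 ± 0.35 in granulosa and 1.20 ± 0.20 in theca cells without sheep 209 and did not pass after adjustment (exact p = 0.0469, adjusted p = 0.0625). NR2F1 to NR2F2 did not pass either, at -3.83 ± 0.49 in granulosa and -3.49 ± 0.21 in theca cells (exact p = 0.117, adjusted p = 0.117). For the NR5A pair the ratio thus differed between layers, and for the GATA and NR2F pairs no such difference passed the test.

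Sheep 209 stood apart in the GATA, NR5A and FOXL2 to NR2F2 ratios, and in 1 library also in that of NR2F1 to NR2F2. Its log2 ratio of GATA4 to GATA6 was -4.59 in the library labelled granulosa and -8.68 in that labelled theca, against 0.31 to 1.35 in the other granulosa and 0.90 to 1.48 in the other theca libraries. Its NR5A1 to NR5A2 ratio was -5.73 and -6.72, against -2.23 to -1.38 in granulosa and -0.33 to 1.25 in theca cells of the others. The FOXL2 to NR2F2 ratio of sheep 209 was -4.89 and -4.26, against 1.14 to 3.25 in other granulosa and -1.69 to -0.58 in other theca libraries. NR2F1 to NR2F2 stood at -2.50 in its library labelled theca, above the -3.76 to -3.19 of the others. In that labelled granulosa it was -3.98, within their range.

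**Figure D4:**
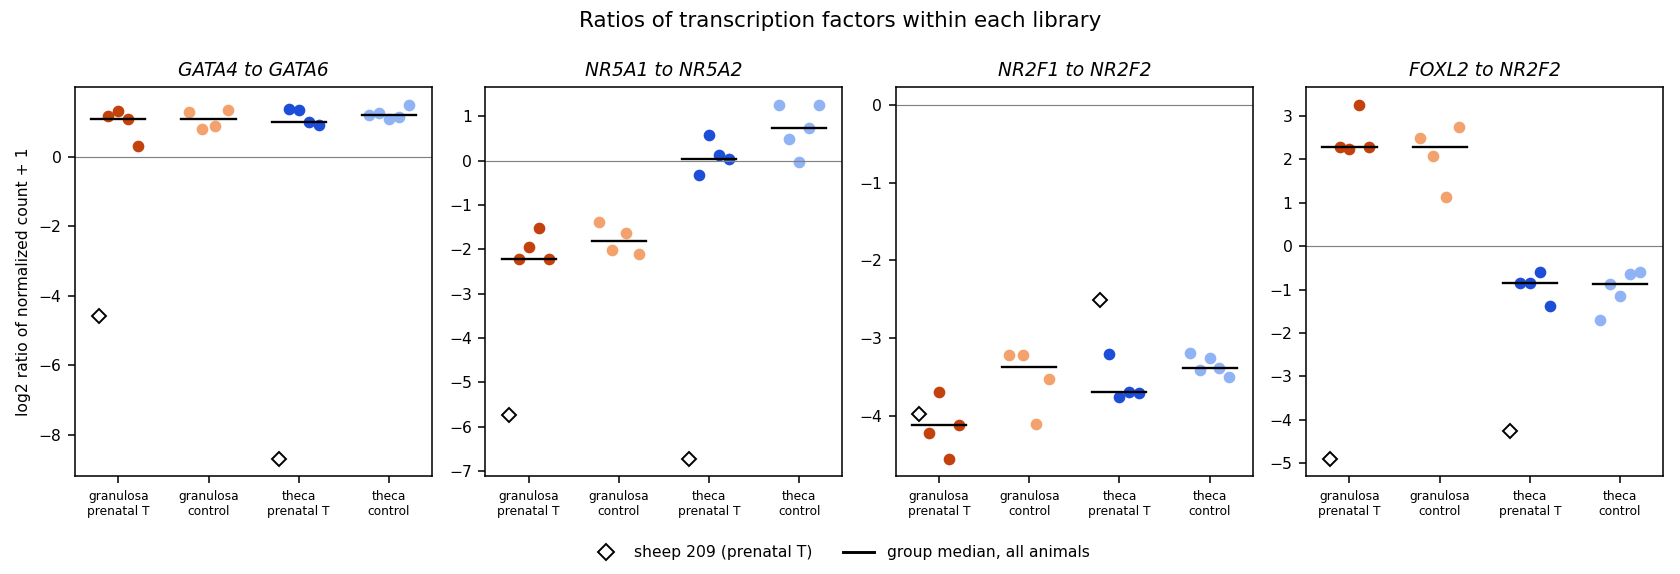
Log2 ratio of 2 factors in each library (normalized count plus 1), with granulosa left of theca and prenatal T left of control. Bars are group medians over all animals and open diamonds are sheep 209. The NR5A1 to NR5A2 ratio is lower and the FOXL2 to NR2F2 ratio higher in granulosa than in theca cells for each of the other 8 animals with both layers.

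The study set prenatal T against control sheep in each layer. In granulosa cells no factor passed. Of 14724 genes tested, 0 passed in limma (0%) and 0 in edgeR, 622 and 833 had an unadjusted p under 0.05, and DESeq2 called 16, none of them among the 10 factors. Without sheep 209, limma and edgeR called 0 of 14460 (1013 with an unadjusted p under 0.05 in each), and DESeq2 called 32, again no factor. In that DESeq2 run only 8 of the factors had an adjusted p, since LHX9 and TCF23 were given none. All 10 factors passed the filter on low values, and in all 10 the prenatal T and control values overlapped, while 2.41% of all genes tested had no overlap (3.85% without sheep 209).

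The factor with the smallest p in granulosa cells was NR2F1. Its level was 66.9 ± 25.8 in prenatal T sheep (SD, n = 5) and 126 ± 23.7 in control sheep (n = 4), and 1 of the 5 prenatal T sheep, sheep 230, lay within the control range. The NR2F1 change was -0.97 ± 0.33 on the log2 scale (rank 134 of 14724 genes by p, limma adjusted p = 0.875) and -1.01 ± 0.33 without sheep 209 (adjusted p = 0.704). NR2F2 averaged 1119 ± 189 in prenatal T and 1453 ± 217 in control sheep, a change of -0.38 ± 0.16 (rank 494, limma adjusted p = 0.875). The other theca factors also had negative changes in granulosa cells without sheep 209, none of which passed: -1.48 ± 0.76 for LHX9, -0.87 ± 0.48 for TCF23 and -0.35 ± 0.24 for WT1 (adjusted p of 0.738, 0.738 and 0.778 in limma).

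The theca markers had mostly negative changes in the same libraries, and none of them was called. The summed level of the 17 theca markers in granulosa libraries ran from 23018 to 46958 in prenatal T sheep and from 38129 to 90289 in control sheep, and all 17 were detected in each library except CYP17A1 in sheep 209. In granulosa cells without sheep 209 the median change of the 17 was -0.50 on the log2 scale, against a median of -0.013 over all genes. Of the 17, 3 were above 0 and 0 were called. An unadjusted p under 0.05 in limma was found for 6 of 17, beside 1013 of 14460 genes. As a share of the same animal's theca level, the median theca marker in granulosa cells was 5.24% to 10.3% in the 4 prenatal T sheep other than 209, 20.0% in sheep 209 and 10.9% to 20.5% in the 4 control sheep. The 11 granulosa markers had a median change of 0.41 there (11 of 11 above 0), 10 endothelial markers -0.32 (1 of 10 above 0) and 8 immune markers -0.42 (0 of 8 above 0), with 0 called in each list. The part of theca or other cells in the granulosa values of NR2F1, NR2F2, LHX9, TCF23 and WT1 was not tested.

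The granulosa and shared factors had changes from -0.032 to 0.32 in granulosa cells once sheep 209 was left out, and none passed. FOXL2 averaged 6402 ± 1287 in 4 prenatal T and 6574 ± 2373 in 4 control sheep (SD), a change of 0.016 ± 0.26 (adjusted p = 0.989 in limma). NR5A2 averaged 7941 ± 1193 and 6756 ± 2816, a change of 0.32 ± 0.28 (adjusted p = 0.798). The changes of NR5A1, GATA6 and GATA4 were 0.11 ± 0.19, 0.074 ± 0.23 and -0.032 ± 0.20. With sheep 209 included they ran from -0.70 for NR5A2 to -2.14 for GATA4, with SEs from 1.01 to 2.10, and none passed. A p that misses the threshold does not show equal levels: the SEs without sheep 209 are 0.19 to 0.28 for these 5 factors.

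In theca cells no factor passed either. Of 15492 genes, 0 passed in limma (0%) and 0 in edgeR (1192 and 1566 with an unadjusted p under 0.05), and DESeq2 called 7, none of them a factor. Without sheep 209, limma and edgeR called 0 of 15304 (1854 and 1947 with an unadjusted p under 0.05) and DESeq2 58, none of them a factor. The prenatal T and control values overlapped for all 10 factors, and 2.26% of genes had no overlap (4.61% without sheep 209). NR2F1 averaged 690.1 ± 126 in prenatal T and 841 ± 163 in control theca cells (SD, n = 5 each), a change of -0.28 ± 0.17 (limma adjusted p = 0.678). NR2F2 averaged 8228 ± 1281 in prenatal T without sheep 209 and 8523 ± 1297 in control theca cells, a change of -0.049 ± 0.14 (adjusted p = 0.908).

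LHX9 varied widely among control theca libraries, from 374 to 1363, and averaged 825 ± 259 in prenatal T sheep without 209 (n = 4) and 825 ± 475 in control sheep (SD, n = 5). Its change was 0.15 ± 0.39 without sheep 209 and -1.77 ± 1.71 with it (limma adjusted p of 0.894 and 0.768). TCF23 and WT1 stood at 0.13 ± 0.19 and -0.11 ± 0.24 without sheep 209. FOXL2, GATA4 and GATA6 stood at 0.035 ± 0.18, -0.16 ± 0.12 and -0.073 ± 0.14. NR5A1 and NR5A2 had changes of opposite sign, -0.22 ± 0.19 and 0.42 ± 0.32, with adjusted p of 0.644 and 0.591 in limma. The 11 granulosa markers in theca libraries without sheep 209 had a median change of 0.41, with 11 of 11 above 0 and 0 called. Their summed level there was 21448 to 42868 in prenatal T sheep other than 209 and 19593 to 27306 in control sheep, all 11 were detected in each, and the part of granulosa RNA in the theca values was not tested. The log2 ratio of NR5A1 to NR5A2 in theca cells averaged 0.099 ± 0.37 in the 4 prenatal T sheep other than 209 and 0.74 ± 0.54 in the 5 control sheep. The 2 groups overlapped (two-sided exact permutation p = 0.111, 0.296 after adjustment over 8 ratios). With sheep 209 the exact permutation p of this ratio was 0.0556, 0.222 adjusted. No ratio passed between prenatal T and control in either layer. The lowest p was that of NR2F1 to NR2F2 in granulosa cells, -4.11 ± 0.32 in 5 prenatal T and -3.52 ± 0.42 in 4 control sheep (exact permutation p = 0.0476, 0.222 adjusted), where 5 against 4 animals can reach 0.0159.

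**Figure D5:**
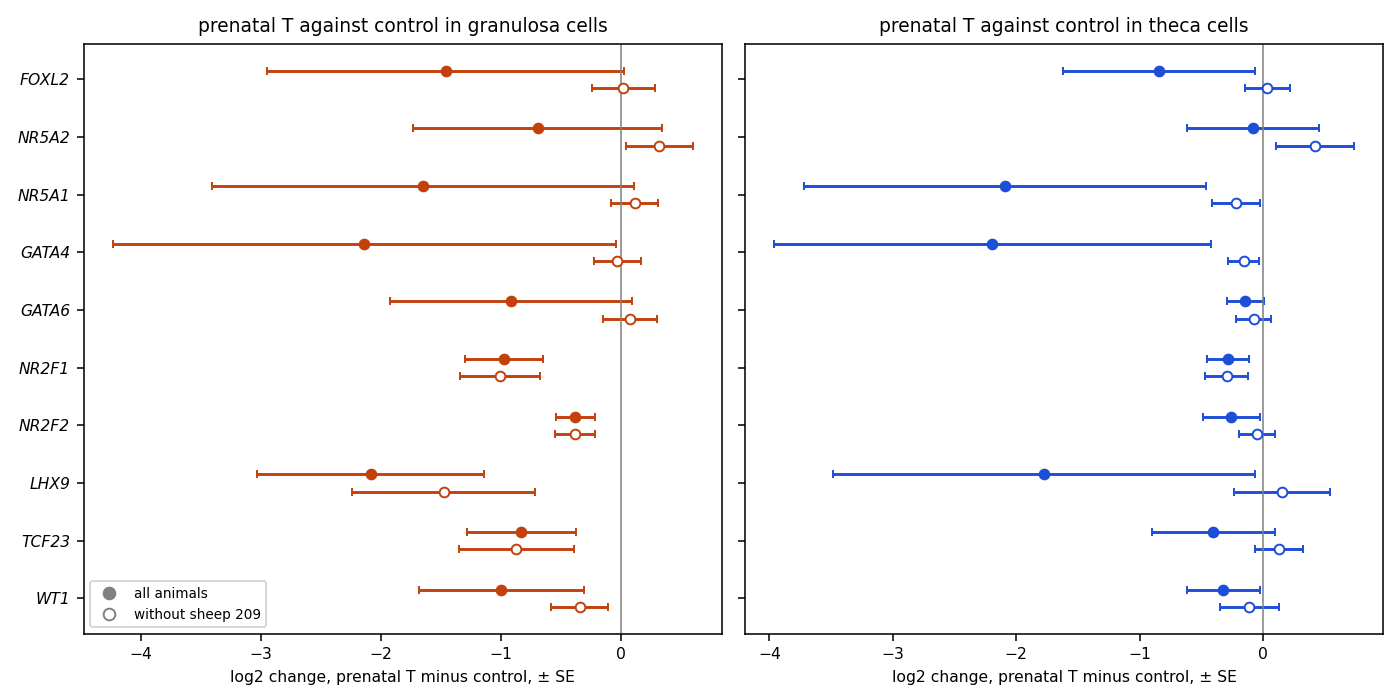
Log2 change of prenatal T against control (± SE, limma) for the 10 factors in granulosa cells (left) and theca cells (right), with filled points for all animals and open points without sheep 209. The wide bars of FOXL2, NR5A1 and GATA4 shrink toward 0 when sheep 209 is left out, and NR2F1 in granulosa cells stands at -0.97 with it and -1.01 without it.

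The difference of the prenatal T effects between layers, tested within animals, passed for no gene in limma (0 of 16169, 0%, with 755 at an unadjusted p under 0.05) or edgeR (0, with 735), while DESeq2 called 20. Without sheep 209 limma and edgeR called 0 of 15923 (1328 and 1227 with an unadjusted p under 0.05) and DESeq2 31, and none of the calls in either set was a factor. Without sheep 209, 4 factors had an unadjusted p under 0.05 in limma, each with an adjusted p of 0.536. The effect in granulosa minus that in theca cells was -1.12 ± 0.32 for TCF23 (rank 156 of 15923 genes by p), -1.86 ± 0.61 for LHX9 (rank 307), -0.82 ± 0.29 for NR2F1 (rank 510) and 0.43 ± 0.16 for NR5A1 (rank 728). With all libraries NR2F1 and NR5A1 stood at -0.79 ± 0.28 and 0.54 ± 0.19 (adjusted p = 0.96 each), and TCF23 and LHX9 at -0.54 ± 0.62 and -0.54 ± 1.38.

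The same contrast can be read as granulosa in percent of theca. For TCF23 it was 1.18% to 1.599% in the 4 prenatal T sheep other than 209, 10.5% in sheep 209, and 1.57% to 4.53% in the 4 control sheep. For LHX9 it was 0.44% to 1.79% in these prenatal T sheep and 0.87% to 6.77% in control sheep. For NR2F1 it was 6.55% to 18.1% in the prenatal T sheep and 14.3% to 18.2% in control sheep. The groups overlapped for all 3. The 17 theca markers had a median difference of effects of -0.62 without sheep 209, with 2 of 17 above 0 and 0 called, and their part in these values was not tested.

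Genes that work with the 10 factors were read from 4 lists, which leave out the factors themselves and were chosen with earlier results of these data known. Of cofactors, 28 were tested between the layers with all libraries, and 9 were higher and 10 lower in granulosa cells, beside 28.8% higher and 27.8% lower over all genes tested, which for 28 genes is close to these counts. The median was 0.038 against 0.028 over all genes. ZFPM1 (FOG1), a partner of GATA factors, was higher in granulosa cells by 1.02 ± 0.10 on the log2 scale. It stood at 1464 to 1752 in prenatal T sheep other than 209 and 1274 to 2375 in control granulosa cells, against 511 to 869 and 703 to 1063 in their theca cells. LDB2, a partner of LIM homeodomain proteins such as LHX9, had a difference of -2.25 ± 0.16, and TCF4, an E protein that pairs with basic helix-loop-helix factors, one of -1.26 ± 0.11. The adjusted p was 6.7e-06 for ZFPM1, 1.03e-06 for LDB2 and 2.73e-06 for TCF4 in limma.

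Of other gonadal transcription factors, 31 were tested, 8 were higher and 17 lower in granulosa cells (beside the same 28.8% and 27.8% over all genes), and the median was -0.50. GLI1, the effector of hedgehog signalling, MEIS1, a homeodomain factor, and TCF21, a basic helix-loop-helix factor of mesenchyme, had the smallest p, at -3.35 ± 0.17, -2.48 ± 0.13 and -3.41 ± 0.18 (adjusted p of 1.24e-07, 1.29e-07 and 1.47e-07 in limma). Both GLI1 and TCF21 are also among the theca markers, so their direction was known beforehand. TCF21 stood at 116 to 186 in granulosa cells of prenatal T sheep other than 209 and at 101 to 312 in those of control sheep, against 1616 to 2314 and 1717 to 2145 in their theca cells. Of relatives of the 10 factors, 20 were tested, 3 were higher and 12 lower (again beside 28.8% and 27.8%), and the median was -1.69. Besides TCF21, which is in this list too, LHX6 had a difference of -2.55 ± 0.22 and NR6A1, an orphan nuclear receptor, one of 0.88 ± 0.07 (adjusted p of 2.93e-06 and 2.34e-06 in limma).

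Of known target genes, 25 were tested, 12 were higher and 8 lower in granulosa cells (beside 28.8% and 27.8% over all genes), and the median was 0.97. AMH, INHA, INHBB, FST, FSHR, CYP19, HSD17B1, GJA1 and KITLG of this list are also granulosa markers, and CYP17A1, INSL3, STAR and PTCH1 are theca markers. Their layer was known beforehand, so these counts and this median do not show a trait of target genes. IHH, a hedgehog ligand made by granulosa cells, was higher there by 3.11 ± 0.24, and PTCH1, the receptor of that ligand and also 1 of the theca markers, differed by -1.52 ± 0.13. IHH stood at 2548 to 4109 in granulosa cells of prenatal T sheep other than 209 and at 943 to 5344 in those of control sheep, against 350 to 415 and 77.9 to 455 in their theca cells. AKR1B1, an aldo-keto reductase, was higher in granulosa cells by 1.002 ± 0.11. The adjusted p in limma was 1.55e-06 for IHH, 3.09e-06 for PTCH1 and 1.4e-05 for AKR1B1. Without sheep 209 the counts of higher and lower genes were 10 and 10 for cofactors, 9 and 18 for other gonadal factors, 3 and 13 for relatives, and 13 and 8 for targets, beside 31.9% and 30.9% over all genes. Between prenatal T and control, 0 genes of the 4 lists passed in limma in granulosa cells, in theca cells or for the difference of effects, with all libraries or without sheep 209.

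For each factor, the 2 genes with the most similar pattern over the 19 libraries were sought among 10664 genes, by Pearson's r of the log2 levels. These r describe points that share layer, animal and, for 2 of them, sheep 209, and genes within a library are not independent. For NR2F2, NR2F1, TCF23 and LHX9 r was about the same without sheep 209, and for WT1 it was lower. NR2F2 was most like DACT3 and NID1, which encodes the basement membrane protein nidogen (r = 0.990 and 0.989, and 0.994 and 0.989 without sheep 209), and NR2F1 most like FGF1, a fibroblast growth factor, and ZNF423 (0.985 and 0.982, and 0.984 and 0.980 without). TCF23 was most like PEAR1 and SPARCL1 (0.987 and 0.985, and 0.989 and 0.986 without) and LHX9 most like CAVIN2 and ENPP6 (0.958 and 0.957, and 0.978 and 0.947 without). NR5A2 was most like NPTX1 and ST3GAL4 (0.979 and 0.978, and 0.970 for both without sheep 209), and WT1 most like ZNF469 and MPP6 (0.949 and 0.944, and 0.864 and 0.836 without). GATA4 and NR5A1 were both most like ESR2, an estrogen receptor, and LAMA1, a laminin chain, and these values fell when sheep 209 was left out. GATA4 had r = 0.994 and 0.992 with them over 19 libraries and 0.50 and -0.012 over 17, and NR5A1 had 0.994 and 0.990 over 19 and 0.74 and 0.20 over 17. FOXL2 was most like KCNH2 and TUB (0.979 and 0.976, and 0.715 and 0.907 without), and GATA6 most like AKAP2 and THBS3 (0.960 and 0.959, and 0.544 and 0.772 without).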

How the data were processed

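Total RNA of granulosa and theca cells was measured in 19 libraries that have values in the deposited table, while 20 samples are listed for the study. Values in the deposited table are a signal: the authors' gene counts, scaled by 1 size factor per library. In it, 0 columns lacked a sample. Per the submitters' processing notes the tools were STAR 2.6.0c, featureCounts (Subread 1.6.1), DESeq2, and for quality FastQC 0.11.5 with MultiQC 0.9. The build they aligned to was not given in the sources used here. A RefSeq gene table (sheep, ARS-UI_Ramb_v3.0) served only to find genes that overlap a factor (9 of the 10 symbols matched). Values were whole multiples of 1 step in each library (100% of values, relative tolerance 1e-06). Dividing by the step gave whole reads, 12.70 to 26.03 M in a library.

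Genes were kept where 5 or more of the libraries compared reached a value of 10. The log2 of the value plus 1 was tested in limma 3.58.1 under R 4.3.3 (eBayes with trend), two-sided, with Benjamini-Hochberg adjustment over all genes and a threshold of 0.05. Fold changes on this scale understate the change of low genes. Comparisons between layers, and of the prenatal T effect between layers, had the animal as a block, since both layers came from the same sheep (own other layer best in 9 of 9, r = 0.42 to 0.80 across genes). Within groups, no 2 libraries were repeats of each other (chi-square per degree of freedom at least 25.9 over 36 pairs). Ratios were tested by exact permutation and exact sign-flip tests (scipy 1.17.1). Alternatives were edgeR 4.0.16 (quasi-likelihood) and DESeq2 1.42.0 on recovered reads, TMM scaling, a pseudocount of 10, no filter, other blocks, and each animal left out. edgeR and DESeq2 without sheep 209 were chosen after seeing the data. Scripts were tested on simulated data.

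The 10 factors and all gene lists were chosen with earlier results of these data known. Besides the factors, the text names the 3 genes of smallest p past the threshold in each of 4 lists and comparisons, the 2 genes most like each factor (mean of at least 100), and markers.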

Additional observations from a re-analysis of the deposited data

Results flagged for a closer look

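In 9 of 56 groups of values the lowest animal lay farther from the rest than Dixon's critical value (0.71 for 5 animals, gap to the nearest animal over the whole range), and it was prenatal T sheep 209 each time. Chance alone marks about 1 in 20 independent groups. These groups share animals and values, and sheep 209 was known beforehand to stand apart, so 9 of 56 cannot be set against that rate.

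AMH, FSHR, CYP17A1 and INSL3 were at or near 0 in both libraries of this sheep, while some other theca markers were not low in that labelled theca. GATA4 stood at 2.30 normalized counts in its library labelled granulosa (gap 0.91 of the range) and at 2.53 in that labelled theca (gap 0.783). FOXL2 stood at 206 in that labelled theca (gap 0.827). The log2 ratio of GATA4 to GATA6 was -4.59 in the library labelled granulosa (gap 0.83) and -8.68 in that labelled theca (gap 0.954). The NR5A1 to NR5A2 ratio was -5.73 (labelled granulosa, gap 0.834) and -6.72 (labelled theca, gap 0.876), and the FOXL2 to NR2F2 ratio was -4.89 (labelled granulosa, gap 0.876) and -4.26 (labelled theca, gap 0.789). Other levels of sheep 209 were not marked by this measure, also low ones such as NR5A1 at 3.45 and 1.27 and LHX9 at 0 in both libraries.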

How the results depend on the processing

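Between granulosa and theca cells, the 6 factors past the threshold kept their direction and call under each alternative run, and 9161 genes were called. Without a replicate block the count was 5148, and with 1 animal left out it was 8331 to 10000. Between prenatal T and control, DESeq2 called 16 genes (granulosa), 7 (theca) and 20 (difference of effects), and 32, 58 and 31 without sheep 209. Leaving out 1 animal gave 0 in limma in each. With the animal as a replicate block over both layers, limma called 1 gene in granulosa and 0 in theca cells, and without the block 0 for the difference of effects. No factor was among these calls.

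Signs turned for values that had not passed, mostly without sheep 209, which gives the upper end of these ranges with 1 animal left out. In granulosa cells the prenatal T change ran from -1.92 to 0.016 for FOXL2, -1.31 to 0.074 for GATA6, -2.20 to 0.11 for NR5A1 and -0.99 to 0.32 for NR5A2. In theca cells it ran from -1.09 to 0.035 for FOXL2, -0.34 to 0.42 for NR5A2, -2.40 to 0.15 for LHX9 and -0.64 to 0.13 for TCF23. Theca NR5A2 was also above 0 without control sheep 244 (0.087), in edgeR (0.16) and in DESeq2 (0.15). The difference of effects ran from -0.71 to 0.10 for FOXL2, -1.10 to 0.15 for GATA6 and -0.63 to 0.12 for NR5A2, and for GATA4 from -0.058 (without sheep 246) and -0.017 (without sheep 230) to 0.15 (without sheep 224). Between layers GATA6 ran from -0.27 to 0.35, and was at 0.042 in edgeR, 0.027 in DESeq2 and 0.38 in edgeR without sheep 209. NR5A1 passed there under TMM scaling (0.32, adjusted p = 0.0427 in limma).

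With 1 animal left out, ratio changes ran from -0.24 to 0.070 for NR2F1 to NR2F2 in theca cells, above 0 without sheep 139 (0.012), 230, 276 (0.052) or 315 (0.056). They ran from -1.63 to 0.40 (granulosa) and -0.83 to 0.084 (theca) for FOXL2 to NR2F2, and from -0.17 to 0.41 between layers for GATA4 to GATA6, with the sign turning without sheep 209. The cause was not tested.

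Granulosa LHX9 and TCF23 rest on few reads, and LHX9 passed the filter there in 4 of 9 fits with 1 animal left out.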

Other observations

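Factors of the testis and of early granulosa cells were read after their values were seen. SOX9, a Sertoli cell factor that many epithelia also express, stood at 34.4 to 381 normalized counts in granulosa cells of the prenatal T sheep other than 209 and at 26.8 to 404 in those of control sheep, against 38.9 to 114 and 47.2 to 243 in their theca cells. In sheep 209 SOX9 was at 3682 in the library labelled granulosa and 925 in that labelled theca, above every other library. Most epithelium markers were high in the same 2 libraries, with KRT19 at 34371 and 9626, CDH1 at 15271 and 3153 and PAX8 at 1511 and 414. MSLN of the same list was not. It stood at 44.9 and 98.7, against 30.9 to 144 in other granulosa and 68.8 to 275 in other theca libraries. AMH and FSHR were at 0 in both libraries of sheep 209. The part of epithelial cells in the SOX9 values was not tested. DMRT1, another testis factor, stood between 0 and 4.60 in the 19 libraries. Between layers SOX9 did not pass (0.66 ± 0.35 on the log2 scale, limma adjusted p = 0.131, and 0.49 ± 0.34 without sheep 209). SOX8 and SOX10, also in the list of other gonadal transcription factors, were lower in granulosa cells with all libraries. Their differences were -2.21 ± 0.52 and -4.12 ± 0.47 (limma adjusted p of 0.0037 and 2.67e-05). Levels were low, at 0 to 51.8 for SOX8 and 0 to 97.3 for SOX10 in the 19 libraries.

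RUNX1, which acts beside FOXL2 in fetal mouse granulosa cells, was higher in granulosa than in theca cells by 1.90 ± 0.073 on the log2 scale without sheep 209 (limma adjusted p = 7.12e-09) and by 1.69 ± 0.19 with it. It stood at 1424 to 2077 in granulosa cells of prenatal T sheep other than 209 and at 1395 to 1622 in those of control sheep, against 366 to 584 and 289.8 to 528 in their theca cells. In sheep 209 RUNX1 was at 2642 in the library labelled granulosa and 2608 in that labelled theca, the 2 highest values of the 19 libraries. Summed immune markers (17648 and 19911) and epithelium markers (92366 and 22626) were also high in these 2 libraries, and their part in the RUNX1 values was not tested.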
